A study of Mus musculus with 48 samples.

Results

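The complement and coagulation proteins of plasma are made largely in the liver, and 39 of their genes were followed here across doses of dichloroacetic acid (DCA). The 39 genes were taken by symbol, 16 from complement (symbols in C, Cf, Masp and Mbl, with Hc for complement component 5) and 23 from coagulation, fibrinolysis and their inhibitors. All 39 were listed among the 11275 genes of the frozen (FROZ) table and among the 6673 genes of the formalin-fixed paraffin-embedded (FFPE) table. Expression was measured by TempO-Seq, in which pairs of detector oligos that anneal next to each other on a transcript are ligated, amplified and counted. Male B6C3F1 mice, 4 weeks old, drank water with 0, 1.0, 2.0 or 3.5 g/L of DCA for 6 days, which the labels give as daily doses of 198, 313 or 427 mg/kg-d for the treated mice. Each dose had 6 mice, and every mouse gave 1 FROZ library from RNA of mixed liver lobes and 1 FFPE library from lysate of the left lateral and right medial lobes. All libraries therefore share the strain, the sex and the age of the mice, and dose 0 is the vehicle. Both kinds of sample were stored for more than a decade, FROZ tissue in a freezer and FFPE blocks at ambient temperature. Storage condition therefore differs together with preservation.

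Complement is a cascade of plasma proteases and their substrates that marks and lyses microbes. Lectins of the Mbl family and their Masp proteases start 1 of its branches, the convertases built from C4, C2, C3 and factor B cleave C3, and the terminal components from C5 to C9 assemble into a pore in the target membrane. Coagulation is a parallel cascade in which vitamin K-dependent proteases and their cofactors generate thrombin, which turns fibrinogen into fibrin. Hepatocytes secrete most of both sets, and several members, such as C3 and fibrinogen, are also acute phase proteins whose transcripts rise in inflammation. DCA inhibits pyruvate dehydrogenase kinase and is a byproduct of water disinfection that produces liver tumors in mice.

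Promoter sequence is shown for 8 genes that the results turn on, as the 250 bases before the RefSeq transcription start on GRCm38.p6, read 5′ to 3′ on the strand of the gene. RefSeq promoters matched 30 of the 39 members. The first 3 belong to pore components that were called lower at the highest dose in both preservations, although C8b lost its FFPE call in 8 of 24 fits that left out 1 animal. Capitals mark matches on either strand to motifs of liver factors, searched as TTCNNNGAA (STAT), TTGCNNAA (C/EBP), GTTAAT (an HNF1 half-site, ATTAAC on the other strand) and AGGTCA (a nuclear receptor half-site, TGACCT on the other strand).
C9 (chr15:6445096-6445345, plus strand): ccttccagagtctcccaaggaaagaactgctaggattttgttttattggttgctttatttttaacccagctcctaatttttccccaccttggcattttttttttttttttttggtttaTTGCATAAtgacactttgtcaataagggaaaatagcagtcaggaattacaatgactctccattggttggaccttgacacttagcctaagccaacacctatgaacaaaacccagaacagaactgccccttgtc
C8a (chr4:104876399-104876648, minus strand): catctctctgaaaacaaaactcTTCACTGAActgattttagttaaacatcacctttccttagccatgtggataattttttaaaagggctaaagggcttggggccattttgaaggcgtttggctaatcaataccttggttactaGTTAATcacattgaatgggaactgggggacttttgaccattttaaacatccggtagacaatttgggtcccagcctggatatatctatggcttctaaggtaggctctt
C8b (chr4:104766067-104766316, plus strand): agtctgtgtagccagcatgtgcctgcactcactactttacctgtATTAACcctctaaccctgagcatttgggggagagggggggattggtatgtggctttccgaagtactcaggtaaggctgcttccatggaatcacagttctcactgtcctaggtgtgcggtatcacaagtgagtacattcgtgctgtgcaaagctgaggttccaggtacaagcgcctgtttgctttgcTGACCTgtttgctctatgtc
The next 3 belong to F7, F10 and Proz, which lie one after the other on chromosome 8. In FROZ they were called lower, lower and higher at the highest dose, and in FFPE none of them was called. The call of Proz was close to the threshold and was lost under a median-ratio scaling (FDR 0.324).
F7 (chr8:13025784-13026033, plus strand): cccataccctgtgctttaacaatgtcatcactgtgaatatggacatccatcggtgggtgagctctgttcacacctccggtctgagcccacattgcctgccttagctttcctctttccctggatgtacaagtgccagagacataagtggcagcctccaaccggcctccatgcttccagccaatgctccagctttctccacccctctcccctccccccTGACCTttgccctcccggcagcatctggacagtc
F10 (chr8:13037058-13037307, plus strand): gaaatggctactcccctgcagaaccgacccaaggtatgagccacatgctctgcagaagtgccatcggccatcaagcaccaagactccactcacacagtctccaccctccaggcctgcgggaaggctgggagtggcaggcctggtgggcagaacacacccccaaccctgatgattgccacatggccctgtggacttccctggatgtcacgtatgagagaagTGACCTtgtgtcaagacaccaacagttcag
Proz (chr8:13060658-13060907, plus strand): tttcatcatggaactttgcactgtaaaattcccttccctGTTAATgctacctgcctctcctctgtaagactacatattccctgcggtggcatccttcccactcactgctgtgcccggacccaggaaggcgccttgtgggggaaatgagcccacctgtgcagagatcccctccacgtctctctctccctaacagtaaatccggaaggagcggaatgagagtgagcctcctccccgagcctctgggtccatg
The last pair belongs to 2 of the fibrinogen chains, which were called lower than vehicle at the highest dose only.
Fgb (chr3:83049864-83050113, minus strand): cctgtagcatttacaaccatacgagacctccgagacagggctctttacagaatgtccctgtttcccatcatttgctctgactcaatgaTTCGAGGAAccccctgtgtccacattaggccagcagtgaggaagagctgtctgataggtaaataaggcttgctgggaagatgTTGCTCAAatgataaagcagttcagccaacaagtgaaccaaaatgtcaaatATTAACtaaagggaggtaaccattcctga
Fgg (chr3:83007474-83007723, plus strand): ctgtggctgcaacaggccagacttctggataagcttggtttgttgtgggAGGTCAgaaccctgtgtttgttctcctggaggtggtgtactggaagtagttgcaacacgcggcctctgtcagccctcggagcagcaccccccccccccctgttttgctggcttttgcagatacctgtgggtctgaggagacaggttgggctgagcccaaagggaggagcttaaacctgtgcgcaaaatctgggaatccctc
The C9 window holds a C/EBP match that begins 132 bases before the start, and the C8a window holds a STAT match at 228 and an HNF1 match at 107 bases. The C8b window holds an HNF1 match at 206 and a nuclear receptor match at 20 bases. F7 and F10 hold the nuclear receptor half-site at 34 and 30 bases on the opposite strand, while Proz holds an HNF1 match at 211 bases. Fgb holds STAT, C/EBP and HNF1 matches at 162, 80 and 29 bases, and Fgg a nuclear receptor match at 201 bases. The same windows of 32851 RefSeq promoters hold the STAT letters in 7.02%, the C/EBP letters in 9.56%, the HNF1 letters in 6.43% and the nuclear receptor letters in 14% of cases. Among the 30 members with a window the counts are 6, 7, 9 and 10. A match describes letters in the window and is not a measured binding site.

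In FROZ liver most of the 39 genes were lower at the higher doses. At 427 mg/kg-d 36 of the 39 were lower than vehicle and 1 was higher, where 7.33% of the 11275 genes were lower and 22.7% higher. A gene is called here at a false discovery rate (FDR) under 0.05 in limma, adjusted over all genes of the table, with 6 libraries per dose. At 313 mg/kg-d 25 members were lower and none was higher, against 6.15% of all genes lower and 20.5% higher, with 29 members at an unadjusted p under 0.05, all 29 of them lower. At 198 mg/kg-d 9 members were lower and none was higher, against 0.443% of all genes lower and 1.12% higher, with 17 members at an unadjusted p under 0.05, of which 16 were lower. All 6 treated libraries lay below all 6 vehicle libraries for 8 members at 198, 19 at 313 and 27 at 427 mg/kg-d, against 0.479%, 2.39% and 3.27% of all genes. Values are log2(CPM + 1), so a change of -1 is a halving of CPM + 1. The median change of the members was -0.15, -0.63 and -0.75 at the 3 doses, where the median of all genes was 0.07, 0.11 and 0.10. A median-ratio scaling of the libraries, which sets the median of all genes near 0, left the sign of each called member as it was. In these bulk samples fewer cells of a type and less RNA per cell cannot be told apart. The 198 mg/kg-d count rests on single libraries, as it was 5 without animal 52 and 4 without animal 53.

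**Figure D1:**
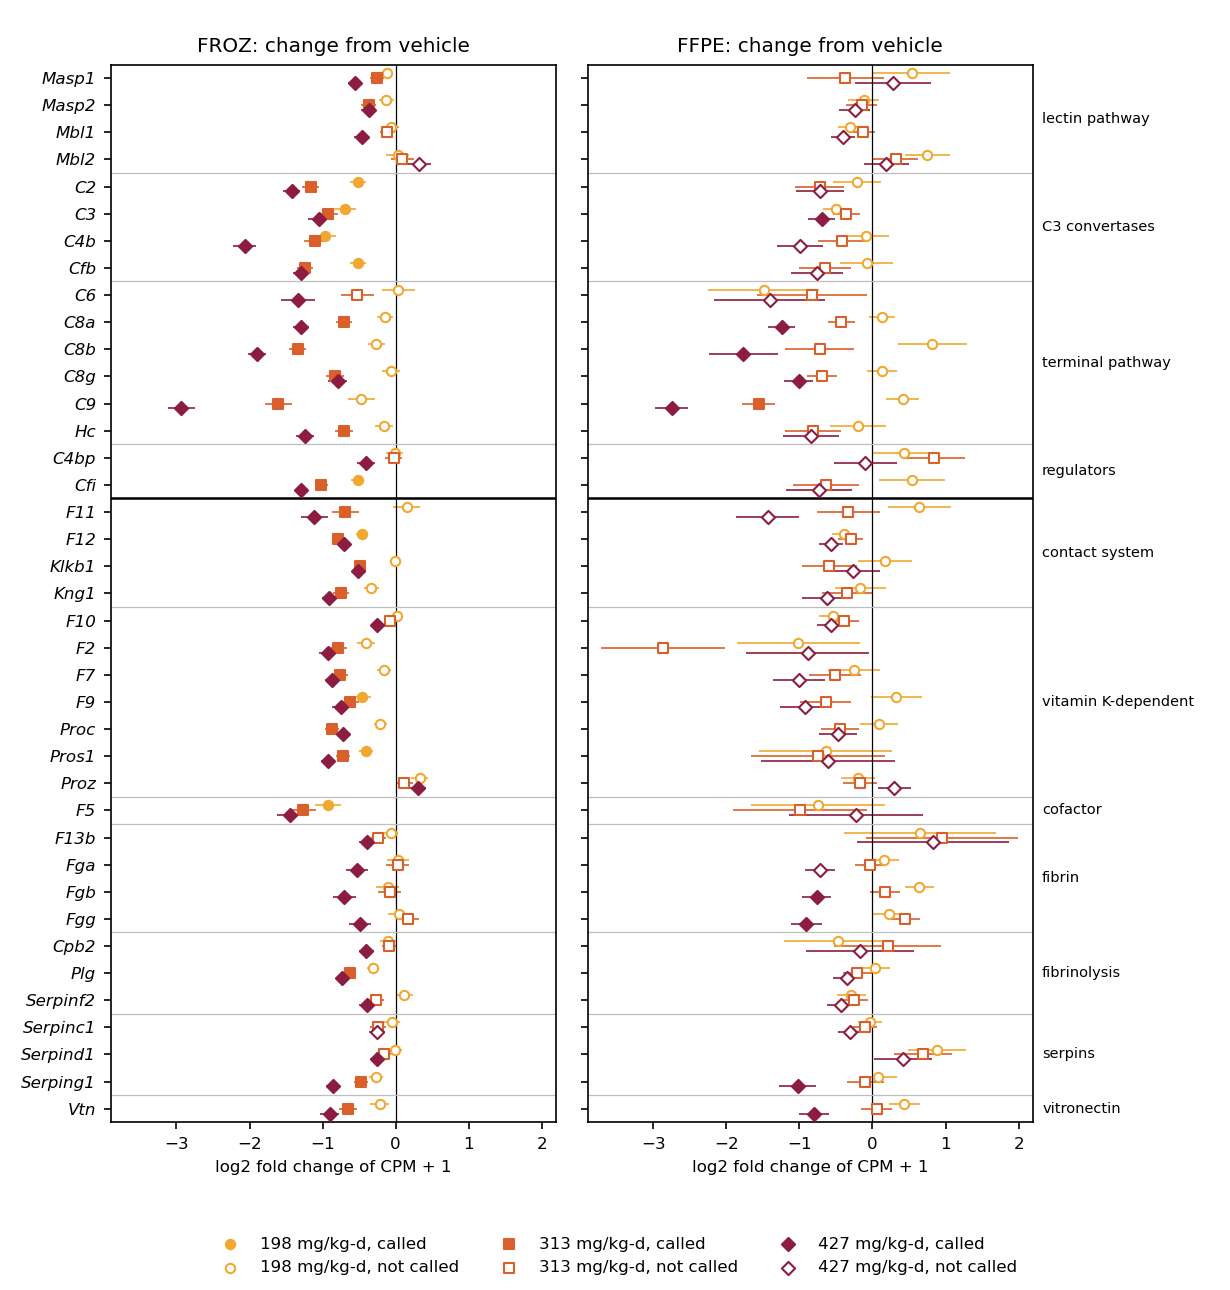
Change from vehicle of the 39 genes in FROZ (left) and FFPE (right), as log2 fold change of CPM + 1 (horizontal) with 1 standard error to each side, grouped by role, with complement above the thick line and coagulation below it. Filled symbols mark FDR under 0.05. In FROZ at 427 mg/kg-d C9 lies furthest left, at -2.94, followed by C4b and C8b, and Proz and Mbl2 lie to the right of 0.

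The median fall of the complement genes was larger than that of the coagulation genes. At 427 mg/kg-d in FROZ, 15 of 16 complement genes were lower, 10 of them by more than 2-fold, with a median change of -1.26. Of the 23 coagulation genes 21 were lower and 1 was higher, 2 fell by more than 2-fold, and the median change was -0.71. The share of all genes that was lower by more than 2-fold was 1.24%. At 313 mg/kg-d 7 members fell by that much, 6 of them complement genes, against 0.887% of all genes, and at 198 mg/kg-d none did, against 0.0621%. At 313 mg/kg-d the medians were -0.77 and -0.49 and the counts lower 12 and 13, and at 198 mg/kg-d the medians were -0.16 and -0.11 and the counts lower 5 and 4. Within each treated FROZ animal the mean change of the complement genes was below that of the coagulation genes. The difference ran from -0.17 to -0.03 over the 6 animals at 198 mg/kg-d, from -0.40 to -0.21 at 313 and from -0.59 to -0.35 at 427 mg/kg-d, where vehicle animals ran from -0.04 to 0.05. In FFPE the difference ran from -0.16 to 0.14 in vehicle, from -0.40 to 0.71 at 198, from -0.32 to 0.01 at 313 and from -0.63 to -0.08 at 427 mg/kg-d, so that vehicle and 427 mg/kg-d overlapped. Members are not replicates and the 2 sets were listed with these results known, so the difference between sets carries no test. Counting Serping1 and Vtn with complement, whose products also act in that cascade, gave medians of -1.15 and -0.70 at 427 mg/kg-d.

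**Figure D2:**
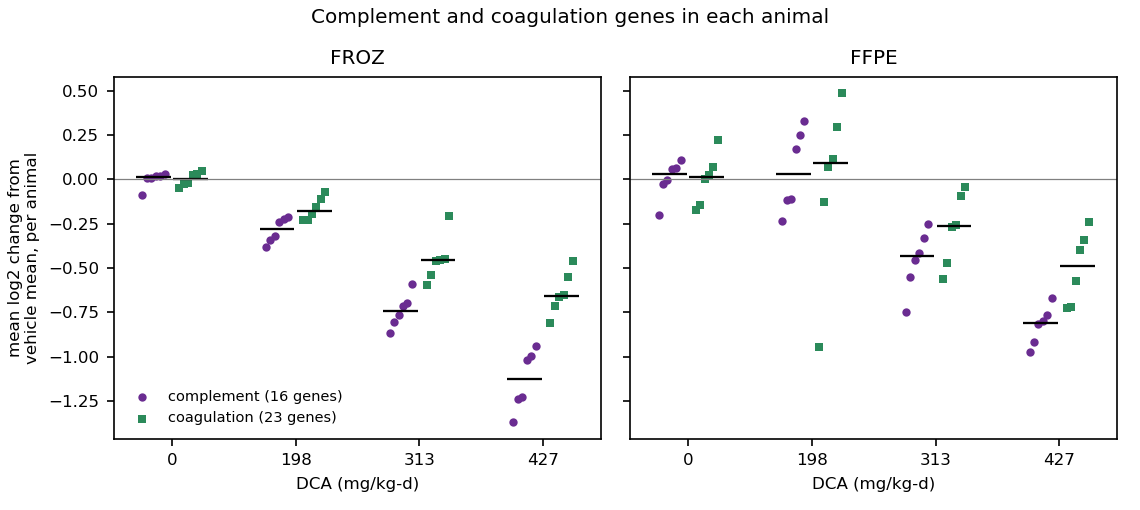
Mean log2 change from the vehicle mean over the 16 complement genes (circles) and the 23 coagulation genes (squares) in each animal, by dose in mg/kg-d, for FROZ (left) and FFPE (right), with the median of 6 animals as a bar. In FROZ at 427 mg/kg-d complement lies between -1.37 and -0.94 and coagulation between -0.81 and -0.46, so the animals of the 2 sets do not overlap, whereas in FFPE they do.

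The 6 terminal components showed the widest range of change. C9 (chromosome 15, 6445327 to 6498751 on mm10, plus strand), which completes the pore, had in FROZ a lowest, median and highest level of 12.33, 12.51 and 13.20 in vehicle, 11.84, 12.11 and 12.46 at 198, 10.76, 10.99 and 11.25 at 313, and 8.98, 9.81 and 10.16 at 427 mg/kg-d. The 313 and 427 mg/kg-d libraries all lie below the lowest vehicle library, and the 427 libraries also lie below every 313 library. The changes were -0.47 (SE 0.18, FDR 0.181), -1.60 (SE 0.18, FDR 4.29e-07) and -2.94 (SE 0.18, FDR 4.92e-12), the last being 7.65-fold lower. Both steps between neighbouring doses were called, -1.13 from 198 to 313 (FDR 0.000159) and -1.33 from 313 to 427 mg/kg-d (FDR 0.000105). In FFPE the C9 levels were 10.89, 11.48 and 11.74 in vehicle, 11.46, 11.82 and 12.45 at 198, 9.28, 9.97 and 10.35 at 313, and 7.90, 8.75 and 9.29 at 427 mg/kg-d. The 198 mg/kg-d group overlapped vehicle with a change of 0.41 (FDR 0.468), while 313 and 427 mg/kg-d lay wholly below it, at -1.56 (FDR 3.12e-05) and -2.75 (FDR 2.37e-10). The exact two-sided permutation test of 6 against 6 gave p = 0.00216 for 427 mg/kg-d in both preservations, the smallest that this design allows. That p is unadjusted, follows from the separation of the groups and adds nothing to it. All 427 mg/kg-d libraries lay below all vehicle libraries for 3.27% of FROZ and 1.54% of FFPE genes, each of which would get the same p.

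C8, the component that anchors the pore, is built of 3 chains whose genes differed in change. Each gene is read by its own probes, so the levels are not compared between the chains. C8b (chromosome 4, 104766317 to 104804548, plus strand) had FROZ levels of 10.61, 10.72 and 10.91 in vehicle, 10.40, 10.46 and 10.64 at 198, 9.06, 9.31 and 9.83 at 313, and 8.59, 8.81 and 9.22 at 427 mg/kg-d. Its change reached -1.34 (FDR 1.21e-08) and -1.90 (SE 0.12, FDR 4.92e-12), with no overlap with vehicle at either dose. Its neighbour C8a (104815679 to 104876398, minus strand), 11.13 kb away, went from 9.08, 9.23 and 9.37 in vehicle to 8.28, 8.46 and 8.71 at 313 and 7.57, 7.97 and 8.27 at 427 mg/kg-d, a change of -0.71 (FDR 2.5e-05) and -1.29 (FDR 9.02e-10). C8g, the gamma chain (chromosome 2, 25498651 to 25501719, minus strand), went from 6.87, 7.35 and 7.57 to 6.02, 6.49 and 6.77 at 313 and 6.21, 6.52 and 6.75 at 427 mg/kg-d. Its change was -0.83 and -0.80, so it had reached its lower level by 313, and the step from 313 to 427 mg/kg-d was 0.03 (SE 0.12, FDR 0.925). C8a and C8b fell again over that step, by 0.58 and 0.56 on the log2 scale (FDR 0.00303 and 0.0104).

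Hc and C6, the gene of component 5 that starts pore assembly and a component that joins it next, were both lower at the highest dose. Hc (chromosome 2, 34983331 to 35061438, minus strand) had FROZ levels of 9.56, 10.31 and 10.45 in vehicle and 8.77, 9.02 and 9.11 at 427 mg/kg-d, a change of -1.24 (SE 0.12, FDR 1.24e-08) after -0.70 (FDR 9.44e-05) at 313. C6 (chromosome 15, 4727175 to 4814967, plus strand) had 7.62, 7.82 and 8.04 in vehicle, 6.51, 7.36 and 7.76 at 313, and 5.56, 6.48 and 7.38 at 427 mg/kg-d. Every 427 mg/kg-d library of both genes lies below the vehicle range, but C6 spread more widely than Hc at that dose, and its changes were -0.53 (FDR 0.0915) at 313 and -1.34 (SE 0.23, FDR 5.56e-05) at 427 mg/kg-d. C6 lies 1630.359 kb from C9 on chromosome 15.

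**Figure D3:**
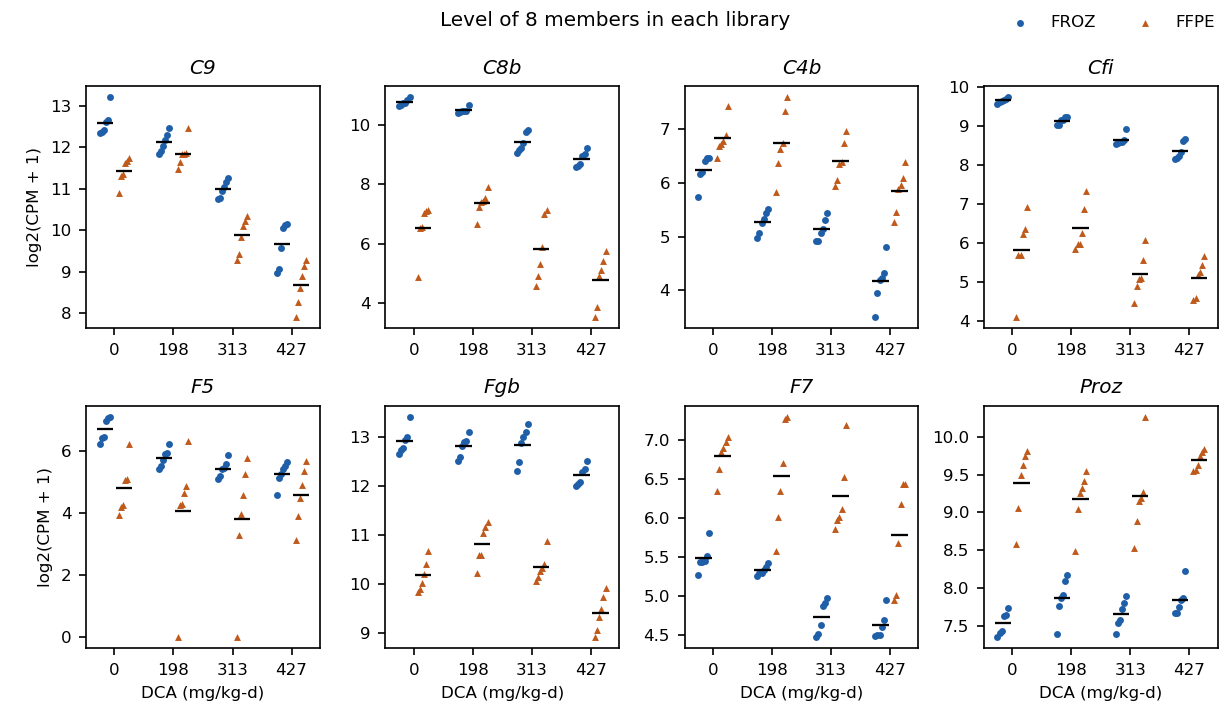
Level of 8 members in each library as log2(CPM + 1), by dose in mg/kg-d, for FROZ (circles) and FFPE (triangles), with the mean of 6 libraries as a bar. The 2 tables were scaled separately, so the offset between circles and triangles is not read as a level difference. C9 falls over 313 and 427 mg/kg-d in both preservations, Fgb lies lower only at 427, F5 is at 0 in 2 FFPE libraries, and Proz shows no fall.

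The 4 genes of the C3 convertases and Cfi made up the 5 complement genes called at the lowest dose. All 4 convertase genes were called at 198 mg/kg-d in FROZ, where none of the 6 terminal genes was, although 2 of the 6 had an unadjusted p under 0.05. C4b, component 4 (chromosome 17, 34728380 to 34743882, minus strand), had 5.73, 6.30 and 6.46 in vehicle, 4.97, 5.28 and 5.51 at 198, 4.92, 5.10 and 5.44 at 313, and 3.50, 4.21 and 4.8 at 427 mg/kg-d. No treated library reached the vehicle range, with changes of -0.97 (FDR 0.00137), -1.10 (FDR 9.82e-06) and -2.07 (SE 0.16, FDR 1.42e-10). Other genes hold 34.6% of the 50-base windows of the C4b transcripts, most often its copy C4a, so reads of C4b and C4a could be split between them.

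C2, the protease of the classical and lectin convertase (chromosome 17, 34862604 to 34898265, minus strand), went from 7.63, 7.69 and 8.05 in vehicle to 6.92, 7.34 and 7.54 at 198, 6.18, 6.66 and 6.88 at 313 and 6.19, 6.32 and 6.58 at 427 mg/kg-d. All treated libraries were below vehicle, and the changes were -0.52 (FDR 0.0238), -1.16 (FDR 4.63e-08) and -1.42 (FDR 4.55e-10). Cfb, factor B, the protease of the alternative convertase, lies 85 bases from C2 on the same strand (34856374 to 34862518). It went from 11.03, 11.23 and 11.70 to 10.50, 10.69 and 11.09 at 198, 9.81, 10.04 and 10.09 at 313 and 9.70, 9.98 and 10.17 at 427 mg/kg-d, with changes of -0.51 (FDR 0.0222), -1.24 (FDR 1.56e-08) and -1.29 (FDR 1.69e-09). Other genes hold 38.7% of the windows of C2 and 73.0% of those of Cfb, in both cases most often the read-through transcript Gm20547. Where the probes fall was not examined, so the counts of C2 and Cfb may not be fully separate measurements. C3, the substrate of both convertases (chromosome 17, 57203970 to 57228136, minus strand), is among the transcripts whose probes were attenuated in the assay. Its FROZ levels were 11.72, 11.82 and 12.10 in vehicle, 10.82, 11.25 and 11.38 at 198, 10.38, 10.90 and 11.39 at 313, and 10.32, 10.88 and 11.11 at 427 mg/kg-d. The changes of -0.69 (FDR 0.0168), -0.93 (FDR 3.04e-05) and -1.05 (FDR 3.22e-06) left every treated library below vehicle, with most of the fall at the first dose.

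Cfi, factor I, which inactivates C3b and C4b, followed the convertase genes. On chromosome 3 (129835884 to 129875332, plus strand), it had 9.57, 9.67 and 9.74 in vehicle, 9.02, 9.16 and 9.23 at 198, 8.53, 8.6 and 8.92 at 313, and 8.17, 8.28 and 8.68 at 427 mg/kg-d. The vehicle libraries lay within a narrow range, all treated libraries lay below it, and the changes were -0.52 (FDR 0.00182), -1.02 (FDR 4.35e-09) and -1.29 (SE 0.09, FDR 1.35e-11). C4bp, a cofactor of factor I, did so only at the highest dose, with -0.01, -0.02 and -0.40 (FDR 0.00997). The lectin genes moved least among the complement groups, with a median of -0.42 at 427 mg/kg-d. Masp1 and Masp2, the proteases of the lectin pathway, changed by -0.55 (FDR 6.1e-05) and -0.37 (FDR 0.00763), and the lectin gene Mbl1 by -0.47 (FDR 0.000827). Mbl2, the other mannose-binding lectin, had a change of 0.32 that was not called (SE 0.16, FDR 0.139).

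Coagulation groups fell at different doses. F5, the cofactor of factor X (chromosome 1, 164151838 to 164220277, plus strand), went in FROZ from 6.23, 6.74 and 7.12 in vehicle to 5.43, 5.81 and 6.24 at 198, 5.10, 5.45 and 5.89 at 313 and 4.58, 5.35 and 5.66 at 427 mg/kg-d. The ranges overlapped at 198 only by the edge, and the changes of -0.93 (FDR 0.00827), -1.27 (FDR 7.81e-06) and -1.45 (SE 0.18, FDR 5.5e-07) were the largest of the coagulation genes at each dose. F11, the protease that links the contact system to factor IX (chromosome 8, 45241174 to 45262031, minus strand), was the one other coagulation gene to fall by over 2-fold. Its levels, low throughout, were 3.69, 4.03 and 4.22 in vehicle, 3.59, 4.16 and 4.50 at 198, 2.71, 3.36 and 4.04 at 313, and 2.63, 2.76 and 3.44 at 427 mg/kg-d. The change was 0.15 (FDR 0.738) at 198, -0.69 (FDR 0.00653) at 313 and -1.11 (FDR 3.86e-05) at 427 mg/kg-d, where no library reached the vehicle range. Klkb1, plasma prekallikrein, lies 4.657 kb from F11. It fell by 0.49 and 0.52 on the log2 scale at 313 and 427 mg/kg-d (FDR 2.99e-05 and 8.22e-06). Other genes hold 42.7% of its windows, most often Gm45753. F12, which starts the contact system, and Kng1, kininogen, completed the group with -0.71 (FDR 1.37e-07) and -0.91 (FDR 2.66e-07) at 427 mg/kg-d. Their libraries already lay wholly below vehicle at 198 mg/kg-d. The highest F12 value there was 7.97 against a lowest vehicle value of 8.08, and for Kng1 12.85 against 12.90.

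Among the 7 vitamin K-dependent genes, 5 were lower at 313 mg/kg-d. F2, prothrombin, F7, F9, Proc (protein C) and Pros1 (protein S) changed by -0.79, -0.76, -0.63, -0.87 and -0.72 at 313 and by -0.93, -0.86, -0.75, -0.72 and -0.93 at 427 mg/kg-d, with an FDR of at most 0.000308. None of the 7 was called in limma in the step from 313 to 427 mg/kg-d, with 1 at an unadjusted p under 0.05, and the values ran from -0.20 (SE 0.10) for Pros1 to 0.18 (SE 0.11) for Proz, while 4 were called from 198 to 313. F9 and Pros1 were already lower at 198 mg/kg-d, by 0.46 and 0.41 on the log2 scale (FDR 0.0473 and 0.0316), with libraries that overlapped vehicle. All F2 libraries at 198 mg/kg-d lay below vehicle, with a highest value of 9.03 against a lowest vehicle value of 9.10.

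The exceptions were a pair of genes in one cluster on chromosome 8. There F7 (13026034 to 13035809), F10 (13037308 to 13056676) and Proz (13060914 to 13076026) follow each other on the plus strand with gaps of 1.498 and 4.237 kb. F7 went from 5.27, 5.44 and 5.81 in vehicle to 4.49, 4.55 and 4.95 at 427 mg/kg-d, with no overlap and a change of -0.86 (SE 0.10, FDR 2.45e-07). F10 went from 9.88, 9.93 and 10.04 to 9.37, 9.71 and 9.90, overlapping by the edge, with a change of -0.25 (SE 0.08, FDR 0.0216). Proz, which encodes protein Z, a cofactor for inhibition of factor X, went from 7.36, 7.54 and 7.75 to 7.4, 7.89 and 8.18 at 198, 7.4, 7.66 and 7.90 at 313 and 7.68, 7.80 and 8.23 at 427 mg/kg-d. Its ranges overlapped at each dose, the changes at 198 and 313 were 0.33 (FDR 0.128) and 0.12 (FDR 0.484), and that at 427 mg/kg-d, 0.30 (SE 0.11, FDR 0.046), was close to the threshold and was not called under a median-ratio scaling, where it was 0.16 (FDR 0.324). At 427 mg/kg-d in FROZ the changes of the 3 neighbours rise in the order in which the genes lie. With only 3 genes and a Proz call close to the threshold, that order carries no test.

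In FROZ the fibrinogen chains were called lower than vehicle at the highest dose only. Fga, Fgb and Fgg, the alpha, beta and gamma chains, lie within one stretch of chromosome 3 with gaps of 11.026 kb between Fgg and Fga and 6.513 kb between Fga and Fgb. At 198 and 313 mg/kg-d their FROZ changes lay between -0.11 and 0.17 with an SE of at most 0.16. At 427 mg/kg-d they were -0.53 (FDR 0.00898), -0.70 (FDR 0.00116) and -0.48 (FDR 0.0147). The step from 313 to 427 mg/kg-d was called for each chain, at -0.56 (FDR 0.0429), -0.62 (FDR 0.027) and -0.65 (FDR 0.0145). Animals 74 and 75 of the 313 group had high acute phase sums (33112 and 25436 CPM), and without both of them the steps were -0.52 (FDR 0.152), -0.55 (FDR 0.14) and -0.58 (FDR 0.0589) and none was called, while the differences from vehicle at 427 mg/kg-d were still called. The part of the acute phase in these steps was not tested. Fgb levels were 12.65, 12.86 and 13.40 in vehicle, 12.51, 12.86 and 13.11 at 198, 12.30, 12.94 and 13.27 at 313, and 12, 12.18 and 12.51 at 427 mg/kg-d. Only at the highest dose did the Fgb libraries separate from vehicle, while those of Fga and Fgg overlapped it. Fga and Fgb are among the attenuated transcripts. F13b, which carries the enzyme that crosslinks fibrin, changed by -0.07, -0.23 (FDR 0.0992) and -0.39 (FDR 0.0052). Over the whole step from 313 to 427 mg/kg-d 10 members were lower and none higher, with 1.34% of all genes lower and 1.73% higher, and 18 members at an unadjusted p under 0.05. The count was 6 without animal 74 or animal 75 of the 313 group or animal 99 of the 427 group, and 5 without both 74 and 75. The 10 were 5 terminal complement genes, C4b, the 3 fibrinogen chains and Serping1. The step from 198 to 313 mg/kg-d lowered 19 members and raised none, with 3.65% of all genes lower and 8.05% higher, and included none of the 4 fibrin genes. That count was 12 without animals 74 and 75.

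Inhibitors and fibrinolytic genes varied. Serping1, the C1 inhibitor, which blocks both C1 and the contact proteases (chromosome 2, 84765387 to 84775444, minus strand), went from 8.63, 8.88 and 8.97 in vehicle to 8.33, 8.64 and 8.77 at 198, 8.23, 8.33 and 8.68 at 313 and 7.53, 8.06 and 8.18 at 427 mg/kg-d. It separated from vehicle only at 427 mg/kg-d, with changes of -0.27 (FDR 0.151), -0.47 (FDR 0.000855) and -0.86 (FDR 2.13e-07). Serpinc1, antithrombin, and Serpind1, heparin cofactor II, had -0.25 (SE 0.11, FDR 0.0838) and -0.26 (SE 0.10, FDR 0.0447), so of these thrombin inhibitors only the latter was called, at nearly the same size. Plg, plasminogen, fell by 0.62 and 0.74 on the log2 scale at 313 and 427 mg/kg-d (FDR 3.03e-06 and 1.05e-07). All Plg libraries at 198 mg/kg-d already lay below vehicle, with a highest value of 11.98 against a lowest vehicle value of 12.14. Serpinf2, the plasmin inhibitor, and Cpb2, which trims plasminogen binding sites from fibrin, had -0.39 (FDR 0.0121) and -0.40 (FDR 0.00418) at 427 mg/kg-d. Vtn, vitronectin, which binds the complement pore, had -0.65 (FDR 0.000442) and -0.90 (FDR 4.81e-06).

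A slope on dose was negative and called for 35 of the 39 members in FROZ, with none positive, against 7.73% of all genes with a negative and 24.4% with a positive slope. The slopes ran from -0.68 (SE 0.06) per 100 mg/kg-d for C9 to 0.07 (SE 0.04) for Mbl2. Fga, Fgg, Proz and Mbl2 were the 4 not called. In FFPE the slope was called for 3 members, C9, C8a and C8g, at -0.67, -0.28 and -0.25 per 100 mg/kg-d, against 0.659% of all genes, and was positive for none, against 1.51%.

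FFPE libraries of the same livers showed fewer calls. At 427 mg/kg-d 9 members were lower and none was higher, where 0.869% of the 6673 genes were lower and 1.54% higher, and 21 members had an unadjusted p under 0.05, all lower. At 313 mg/kg-d only C9 was called, against 0.315% of all genes lower and 0.764% higher, with 7 members at an unadjusted p under 0.05, and at 198 mg/kg-d no member was in limma, against 0.03% of all genes in each direction, with 7 members at an unadjusted p under 0.05, of which 3 were lower. The 9 genes were C3, C8a, C8b, C8g, C9, Fgb, Fgg, Serping1 and Vtn. C8a went from 9.53, 9.87 and 9.92 in vehicle to 8.02, 8.63 and 8.97 at 427 mg/kg-d (change -1.24, FDR 2.59e-05) and C8g from 9.50, 9.91 and 10.43 to 8.74, 8.97 and 9.03 (-1.01, FDR 0.00203), both without overlap. C8b went from 4.87, 6.81 and 7.12 to 3.52, 5.02 and 5.77 (-1.77, SE 0.47, FDR 0.0323), overlapping through 1 low vehicle library. Fgg, at 11.43, 11.61 and 12.04 in vehicle and 10.37, 10.73 and 11.31 at 427 mg/kg-d, fell without overlap (-0.90, FDR 0.0112), and so did Serping1 (-1.02, FDR 0.0179), Vtn (-0.80, FDR 0.0302) and C3 (-0.70, FDR 0.0292). Fgb overlapped vehicle (-0.76, FDR 0.0292). With 1 animal left out at a time, C3 lost its call in 9 of 24 fits, C8b in 8 and Serping1 in 3. The median change was -0.74 for complement and -0.57 for coagulation, where that of all genes was 0.18. Of the 9, 5 fell by more than 2-fold, against 0.584% of all genes, and 14 members had all treated libraries below all vehicle libraries, against 1.54%. The count of 9 moved widely, to 5 without animal 97 or without animal 99, and to 22 with libraries weighted by quality.

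The tests that separate the preservations were made within animals. The change at 427 mg/kg-d differed between FFPE and FROZ for none of the 39 members at FDR under 0.05 in limma, where 0.0303% of the 6591 shared genes were called, with 3 members at an unadjusted p under 0.05. None was called at 198 or 313 mg/kg-d either, with 10 and 5 members at an unadjusted p under 0.05, where 0.0303% and 0% of genes were called. For C9 the FFPE change minus the FROZ change was 0.19 (SE 0.19), for C8a 0.05 (SE 0.22) and for C8b 0.13 (SE 0.44). The 3 with an unadjusted p under 0.05 were C4b, C3 and C2, at 1.08 (SE 0.35), 0.36 (SE 0.15) and 0.71 (SE 0.34), each with a smaller fall in FFPE. A p that misses the threshold does not show that the responses were alike.

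Levels themselves differed far more. In vehicle livers, with both tables rescaled to their shared genes, 24 members were lower in FFPE than in FROZ and 9 were higher, against 22.4% and 31.1% of shared genes. Some of the gaps split subunits of 1 protein, as C8b was lower by 4.26 and C8g higher by 2.6 log2 units in FFPE, with C8a at 0.55 (SE 0.16). The fibrinogen chains also parted, with Fga at -2.50 and Fgb at -2.79 but Fgg at -0.15 (SE 0.18, FDR 0.5). F13b showed the lowest value, -6.65, followed by C8b, Cpb2 at -3.99 and Cfi at -3.89, while Masp2 at 3.05 and F11 at 2.93 were the highest. The scaling matters to the smaller gaps, since with a median-ratio scaling over all 48 libraries C8a was at -0.02 and Fgg at -0.72. The lobes sampled differ between preservations, so tissue region and preservation cannot be told apart in these values.

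**Figure D4:**
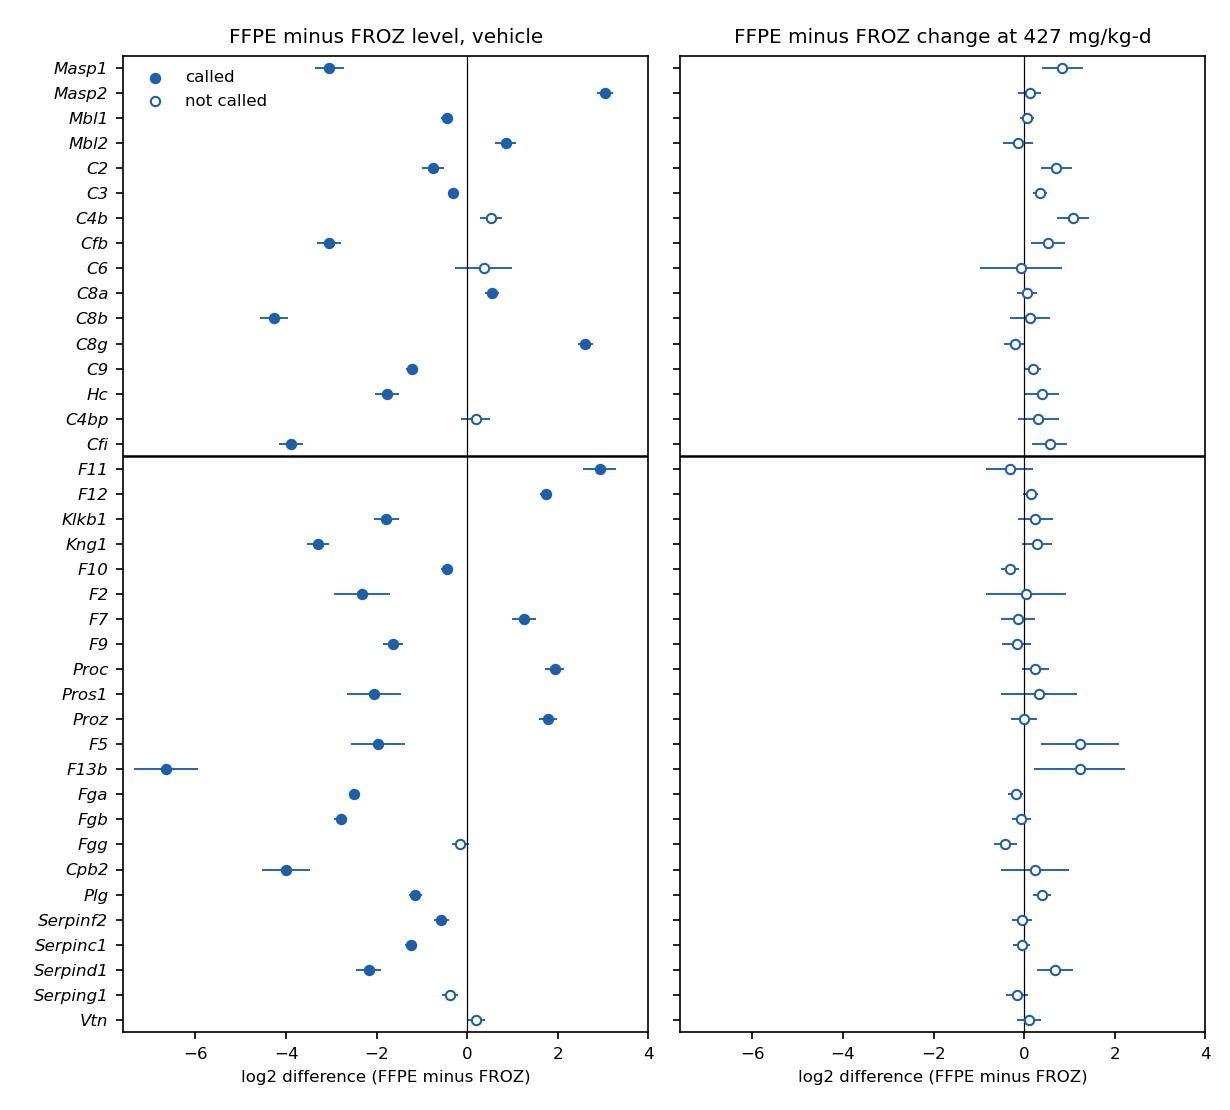
FFPE minus FROZ log2 difference of the 39 genes within animals, with 1 standard error to each side, for the level in vehicle livers (left, both tables rescaled to shared genes) and for the change at 427 mg/kg-d (right), on the same scale. Filled symbols mark FDR under 0.05, which 33 members reach in the left panel and none in the right, and F13b lies furthest left at -6.65.

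Counted reads and zeros limited the FFPE values. From the step between low values, the CPM of FROZ libraries was scaled to 6.69 to 9.84 M reads, with 12 to 61 genes at 0. That of FFPE libraries was scaled to 1.83 to 6.02 M reads, with 65 to 1580 genes at 0. These are the reads behind the CPM values and not all reads sequenced, and the paper reports a lower aligned share in FFPE than in FROZ. These FFPE zeros differed by dose, at 131 to 791 in vehicle, 153 to 1580 at 198, 163 to 1439 at 313 and 65 to 249 at 427 mg/kg-d. The median FFPE change of all genes was -0.19 at 198, -0.12 at 313 and 0.18 at 427 mg/kg-d. The part of library quality in the FFPE changes was not tested. F13b was at 0 in 4 FFPE libraries, F5 in 2, and F2 and Pros1 in 1 each, where 1 read was worth 0.166 to 0.547 CPM and a count of 0 allows up to 3 reads. F5 at 427 mg/kg-d in FFPE, at -0.22 (SE 0.92), has an error too wide to set beside its FROZ fall. Such limits cover counting error only. Without the 4 FFPE libraries in which over 15% of genes were at 0, 12 members were lower at 427 mg/kg-d. All 4 were from the 198 or 313 mg/kg-d groups, so leaving them out altered the estimated spread and not the changes at 427 mg/kg-d.

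Markers of liver cells moved in part with dose. The shares of all FROZ genes called at 427 mg/kg-d, 7.33% lower and 22.7% higher, stand beside the counts below. In FROZ 3 of 10 hepatocyte markers were lower at 427 mg/kg-d and none was higher, and their summed level ran from 38911 to 47817 CPM in vehicle and from 29001 to 38181 CPM at 427, without overlap, although Alb changed by -0.07 (SE 0.13, FDR 0.716). Of the 6 Kupffer cell markers listed, 3 were lower, with sums of 76.3 to 115 and 64.0 to 82.8 CPM, and Timd4 and Marco were not listed. Of the 6 blood and platelet markers listed, 3 were lower, with sums of 61.8 to 130 and 37.4 to 84.2 CPM. Endothelial and stellate lists had 1 lower gene each, of 8 and 7 listed, and the cholangiocyte and leukocyte lists none of 3 and 6. The part of these markers in the fall of the members was not tested.

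Acute phase transcripts differed strongly between animals. Their summed level in FROZ was 26218 CPM in vehicle animal 8 against 4627 to 6671 in the other 5, and 33112 and 25436 CPM in animals 74 and 75 of the 313 group against 4686 to 9994 in the other 4. The same 3 animals stood out in FFPE, with 51093, 35824 and 27670 CPM. At 427 mg/kg-d the sums ran from 2694 to 5329 CPM in FROZ, and 4 of 10 acute phase genes were lower, against 7.33% of all genes. Among the 4 were Saa1 at -2.61 (FDR 0.00401), Orm1 at -1.45 (FDR 6.51e-06) and Apcs at -1.35 (FDR 2.82e-06). Vehicle animal 8 also had the highest FROZ level of C9, Fga, Fgb and Cfb in its group. Without it the changes at 427 mg/kg-d remained called, at -2.81 for C9, -1.20 for Cfb, -0.41 for Fga (FDR 0.0282), -0.61 for Fgb (FDR 0.00403) and -0.49 for Fgg (FDR 0.023). The part of the acute phase in the fall of the members was not tested.

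Genes of the same pathways outside the 39 moved unevenly. Over all FROZ genes at 427 mg/kg-d, 7.33% were lower and 22.7% higher. Of 20 other complement genes listed in FROZ, 13 were lower at 427 mg/kg-d and none was higher, with a median of -0.50, and among those with the smallest FDR were C1s1 and C1s2, near-identical copies of the C1s protease whose reads may be split, at -0.95 and -1.17. Of 21 other coagulation genes 6 were lower and 2 higher, with a median of -0.00. Hgfac, a protease activated by thrombin, changed by -1.52 (FDR 6.02e-10), and Ggcx, the carboxylase that modifies the vitamin K-dependent proteins, by -0.73 (FDR 3.84e-07). Of 13 liver transcription factors and cytokine receptors 3 were lower and 2 higher, with Stat3 at -0.63 (FDR 0.000373), Stat5b at -0.65 (FDR 0.000909) and Nr1i2 at 0.51 (FDR 0.00324). In FFPE the other complement and coagulation lists each had 1 lower gene of 13, and none of 11 factors was called, with none of the factors at an unadjusted p under 0.05. Of all FFPE genes 0.869% were lower and 1.54% higher at 427 mg/kg-d.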

How the data were processed

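TempO-Seq libraries of 24 mice (6 per dose, 1 FROZ and 1 FFPE library each) were grouped by the dose and preservation in the labels. Per the labels and the study's methods, reads were aligned to the mouse transcriptome (mm10) with STAR 2.6 and quantified per gene in Partek with a RefSeq annotation, abundant transcripts, among them C3, Fga and Fgb, were attenuated equally in all samples, and low genes were removed. The authors deposited log2(CPM + 1) values, CPM being reads scaled to the library total, with each preservation in its own table. No library columns were left unused. Fits therefore ran on log2 values and not on counts, with limma 3.58.1 (R 4.3.3) and a trended variance prior over the 24 libraries of a table, Benjamini-Hochberg adjustment over all its genes, and a threshold of 0.05. The preservations were compared within animals. Levels in vehicle were first rescaled to the 6591 genes in both tables. The pairing comes from the animal numbers in the labels. Deviations from dose means over 4815 genes had a median correlation of 0.128 with the same animal and -0.0232 with other animals of the dose, and 21 of 24 FROZ libraries were best matched by their own FFPE library. Depth, as the reads to which CPM was scaled, was read from the spacing of values under 3 CPM (tolerance 0.1 reads). By this spacing 96.4 to 97.5% of low FROZ values and 80.3 to 95.2% of low FFPE values were whole reads.

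Positions are from GENCODE vM21 (mm10) and promoters from RefSeq. Python 3.11.15 with pandas 2.3.3, numpy 2.4.6, scipy 1.17.1 and matplotlib 3.10.9 did the rest, and the fits were tested on simulated data. C9 and the members called with a fold change above 2 are named with their levels (at most 14, by size of change in FROZ at 427 mg/kg-d), other members by call, level or range within their role, and up to 3 genes by smallest FDR in each further list, of which some are not reported here. The members and lists were chosen with earlier results of these data known. Alternatives covered the offset, a filter at 10 CPM, scaling, the groups fitted, the variance prior, library weights, each animal left out, the animal block, dose rank and the assignment of Serping1 and Vtn. Each animal is 1 sample per table.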

Additional observations from a re-analysis of the deposited data

Results flagged for a closer look

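Among 112 groups of 6 libraries examined for the 14 members with levels by dose, 12 held a library far from the other 5 by Dixon's criterion, where chance alone marks a share of about 0.05 of groups. All values are log2(CPM + 1), and the causes were not tested.

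In FFPE at 198 mg/kg-d 3 values stood apart, all low and from 2 animals. C6 was at 0.63 in animal 49 with the other 5 between 7.08 and 8.89, F5 was listed at 0 in the same animal with the next value at 4.27, and Hc was at 5.96 in animal 53 with the next at 8.39. Animal 49 is one of the 4 FFPE libraries with over 15% of genes at 0. Vehicle animal 3 was low in FFPE for C8a and C8b, at 9.53 and 4.87 where the next values were 9.79 and 6.53. C8a was at 8.67 in animal 73 at 313 mg/kg-d, with the next at 9.30, and that library is also one of the 4.

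In FROZ, C9 was at 13.20 in vehicle animal 8, above the next value of 12.64, and that animal also had the highest acute phase sum of its group. Hc was at 9.56 in vehicle animal 6, below the next value of 10.13. C8b was at 10.64 in animal 50 at 198 mg/kg-d, above 10.47. At 313 mg/kg-d Cfb was at 9.81 in animal 76, below 10.02, and Cfi at 8.92 in animal 78, above 8.65. Serping1 was at 7.53 in animal 97 at 427 mg/kg-d, below 8.02.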

How the results depend on the processing

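Among the changes from vehicle at each dose, no called member changed sign under any alternative run. The FFPE minus FROZ level in vehicle livers was not part of this check, and there C8a did change sign with the scaling. The FROZ counts at 313 and 427 mg/kg-d lower than vehicle stayed within 1.5 times under every alternative, and those in FROZ at 198 and in FFPE at 313 and 427 mg/kg-d did not. The causes were not tested. FFPE libraries had fewer reads behind their CPM values than FROZ ones and held more genes at 0.

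Leaving out 1 animal gave at 198 mg/kg-d in FROZ 4 to 10 members lower (complement 2 to 5, coagulation 2 to 5), 0 to 1 higher and 0 to 2 lower by over 2-fold. The low counts came without animal 52 or 53, and for coagulation also without 4, 8 or 49. The higher member came without animal 50. From 313 to 427 mg/kg-d 6 to 11 were lower, and at 427 mg/kg-d 0 to 1 were higher, with Proz lost in 11 of 24 fits. In FFPE at 313 mg/kg-d 1 to 3 members were lower (complement 1 to 2, coagulation 0 to 1), 1 to 2 by over 2-fold, the higher counts coming without animal 53 or 74, and the complement median was -0.67 to -0.43, the former without animal 8. In FFPE at 427 mg/kg-d 5 to 11 members were lower (complement 3 to 6, coagulation 1 to 6) and 2 to 6 by over 2-fold. Counts lower by over 1.5 times came without vehicle animal 3, 4, 6, 7 or 8 or treated animal 97, 99, 100, 101 or 102. F5 in FFPE at 427 mg/kg-d, which was not called, ran from -0.44 to 0.070 and so reversed.

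Array quality weights gave no higher member in FROZ at 427 mg/kg-d, 3 lower in FFPE at 313 (complement 2, coagulation 1, and 2 by over 2-fold) and 22 at 427 mg/kg-d (complement 10, coagulation 12). Fitting only the 2 groups compared gave 2 coagulation genes lower in FROZ at 198 mg/kg-d and 21 members lower in FFPE at 427 mg/kg-d (complement 10, coagulation 11). A variance prior without trend gave 0 higher in FROZ at 427 mg/kg-d, and 3 lower in FFPE at that dose, all 3 complement genes and by over 2-fold, with 0 coagulation genes. Median-ratio scaling gave 2 members lower by over 2-fold in FROZ at 198 mg/kg-d, 0 higher at 427, and 7 coagulation genes lower in FFPE at 427 mg/kg-d. It moved the FROZ medians of complement to -0.25 at 198 and -0.91 at 313 mg/kg-d, and of coagulation to -0.20, -0.63 and -0.85 at the 3 doses. Dose rank gave 5 members with a lower slope in FFPE. Without the 4 FFPE libraries with over 15% of genes at 0, an alternative chosen after seeing the data, 12 members were lower at 427 mg/kg-d. C4b (FDR 0.0427) and C6 (FDR 0.00484) were among them. None of the 4 libraries was from vehicle or 427 mg/kg-d, so only the estimated spread differed. Without FROZ animals 74 and 75, likewise chosen after seeing the data, 12 members were lower from 198 to 313 and 5 from 313 to 427 mg/kg-d, and 36 were lower than vehicle at 427.

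Without the replicate block that pairs the libraries of an animal, 0 members differed in response at each dose, and 23 were lower and 9 higher in FFPE in vehicle, so the pairing changed no count by over 1.5 times. Of the named genes in FFPE at 427 mg/kg-d, C3 lost its call in 9 of 24 fits without 1 animal, C8b in 8 and Serping1 in 3, and all 3 lost it with a variance prior without trend.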
